A study of Mus musculus with 107 samples.

Results

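Livers of the 26 mice with the highest and the 26 with the lowest Ifi202b signal were compared across all other genes, out of 104 mice with array values. The mice were chosen by a measured value: the ratio of the single Ifi202b probe to a common pool ranked the 104 livers, and the 52 mice between the extremes formed a middle set. The sides are therefore ranks of an expression value and not groups that the labels define. All mice were F2 females from C57BL/6J and DBA/2J parents and ate an atherogenic diet, which raises blood lipids, so every side shares the cross, the sex and the diet. The labels give no age, no genotype and no mouse without the diet. RNA of each liver was labelled beside a reference, a pool holding an equal portion from every liver, on a 2-colour array. The labels count 111 mice, 107 arrays were examined here, and 3 of these held no value other than 0. Ratios to a pool give no absolute level, so the liver label could not be checked by the levels of hepatocyte markers.

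Ifi202b encodes a member of the interferon-inducible Ifi200 (PYHIN) family, a cluster of genes on distal mouse chromosome 1. Most family proteins carry a DNA-binding HIN domain, and several, such as AIM2, also carry a pyrin domain that recruits inflammasome adaptors. The Ifi202b product lacks the pyrin domain and is known to restrain AIM2. Its expression differs strongly between inbred strains, and the gene has been studied as a candidate for lupus susceptibility and for obesity. C57BL/6J is known to carry a deletion at the 5′ end of the gene and to express little of it. In an F2 mouse, neighbouring genes on a chromosome tend to come from the same parental strain, so genes near Ifi202b tend to travel with it.

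The start regions of the genes on which the comparison turned are shown because Ifi203 and Apcs, both close neighbours of Ifi202b, moved in opposite directions. The windows come from RefSeq on GRCm38.p6, run from 250 bases before to 50 bases after an annotated start, and lie on the minus strand. They are at chr1:173982795-173983094 for Ifi202b, chr1:173942443-173942742 for the second of 2 annotated starts of Ifi203 and chr1:172895005-172895304 for Apcs. The genome is that of C57BL/6J, so the Ifi202b window need not be the start used by the DBA/2J allele. Capitals mark matches, on either strand, to an interferon-stimulated response element written GAAANNGAAA or to a STAT-type GAS element written TTCNNNGAA.
Ifi202b: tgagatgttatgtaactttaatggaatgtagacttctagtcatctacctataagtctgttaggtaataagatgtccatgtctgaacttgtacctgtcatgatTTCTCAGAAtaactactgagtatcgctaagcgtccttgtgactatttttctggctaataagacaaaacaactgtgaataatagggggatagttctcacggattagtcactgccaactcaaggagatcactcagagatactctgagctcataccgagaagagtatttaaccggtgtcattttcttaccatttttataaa
Ifi203: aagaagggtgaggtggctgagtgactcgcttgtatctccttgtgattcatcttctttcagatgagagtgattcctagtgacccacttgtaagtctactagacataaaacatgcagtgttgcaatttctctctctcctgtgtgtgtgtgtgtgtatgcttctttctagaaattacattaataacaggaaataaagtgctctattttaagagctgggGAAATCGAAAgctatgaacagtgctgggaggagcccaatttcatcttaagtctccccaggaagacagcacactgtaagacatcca
Apcs: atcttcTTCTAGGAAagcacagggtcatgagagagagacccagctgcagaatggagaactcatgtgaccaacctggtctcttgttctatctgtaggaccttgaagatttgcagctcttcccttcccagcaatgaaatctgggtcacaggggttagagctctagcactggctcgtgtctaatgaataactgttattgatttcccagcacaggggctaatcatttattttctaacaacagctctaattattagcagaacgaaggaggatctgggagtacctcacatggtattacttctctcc
The Ifi202b window held 1 GAS match, starting 148 bases before the start site, and the Apcs window held 1 that began 244 bases before. The Ifi203 window held 1 response-element match, 35 bases before its second start, while the window of its first start held no match to either pattern. Over 32851 promoters of the same length, 3.44% held the response-element letters and 8.3% held the GAS letters. A match in these letters is a description of the reference sequence and was not tied to any measured binding.

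The values are given as log2 ratios of mouse to pool, taking the deposited logarithm as base 10. The labels state neither the base nor the direction of the ratio, and with a natural logarithm every fold would be smaller. With all signs turned the high and low mice trade places, and the differences between the sides keep their sign. Ifi202b itself ran from 0.38 through a median of 0.78 to 1.5 in the high mice. In the low mice it ran from -2.47 through -1.95 to -1.27, and in the middle mice from -1.12 through -0.22 to 0.38. The side means were 0.81 ± 0.31 (SD, n = 26) and -1.99 ± 0.33 (SD, n = 26), a difference of 2.80 or 6.94-fold, which the ranking itself created and which was not tested. The border of the high side had no gap, with 0.3816 at rank 26 and 0.3815 at rank 27. The low side began at -1.27, next to -1.12 for the last middle mouse. Of 18 arrays rich in values at the limits of the deposited scale (over 700 such values each), 2 were in the high, 12 in the middle and 4 in the low mice.

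**Figure D1:**
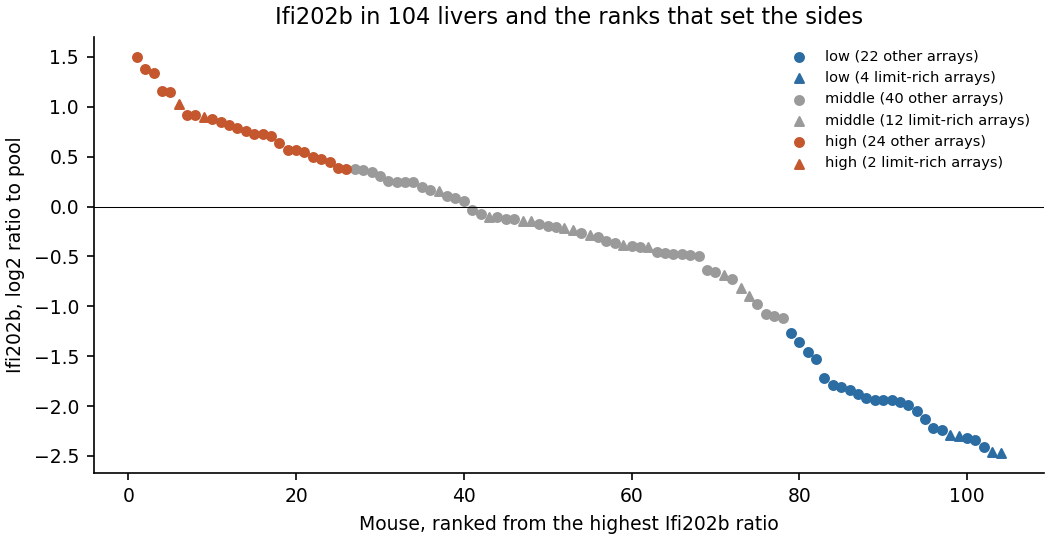
Each point is 1 mouse, ordered from the highest Ifi202b ratio on the x axis, with the log2 ratio to the pool on the y axis; colours mark the sides and triangles the arrays rich in limit values. The 26 low mice lie between -2.47 and -1.27, and the curve passes without a gap from the high to the middle mice.

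With 26 mice a side few genes separated the sides, and nearly all of them were on the chromosome that carries Ifi202b. Among 12314 genes tested with limma, 26 were called at a Benjamini-Hochberg adjusted p under 0.05 (0.211%), with 9 higher (0.0731%) and 17 lower (0.138%) in the high mice. Of the 26, 23 were on chromosome 1, where 695 genes were tested (3.31%). That concentration depended on the setting. With 35 mice a side 36 of 210 called genes were on chromosome 1, and with array weights 38 of 60. Within 10 Mb of Ifi202b 12 of 123 genes were called (9.76%), and 6 of 157 (3.82%) were called between 10 and 40 Mb away. Farther along the chromosome 5 of 415 were called (1.2%). On all other chromosomes 2 of 11274 were called (0.0177%), and 1 of 345 genes without a current position (0.29%). Before adjustment, 1133 genes had a p under 0.05 (9.2%). That share was 23.6% within 10 Mb, 19.1% from 10 to 40 Mb, 10.1% farther away and 8.93% on other chromosomes.

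**Figure D2:**
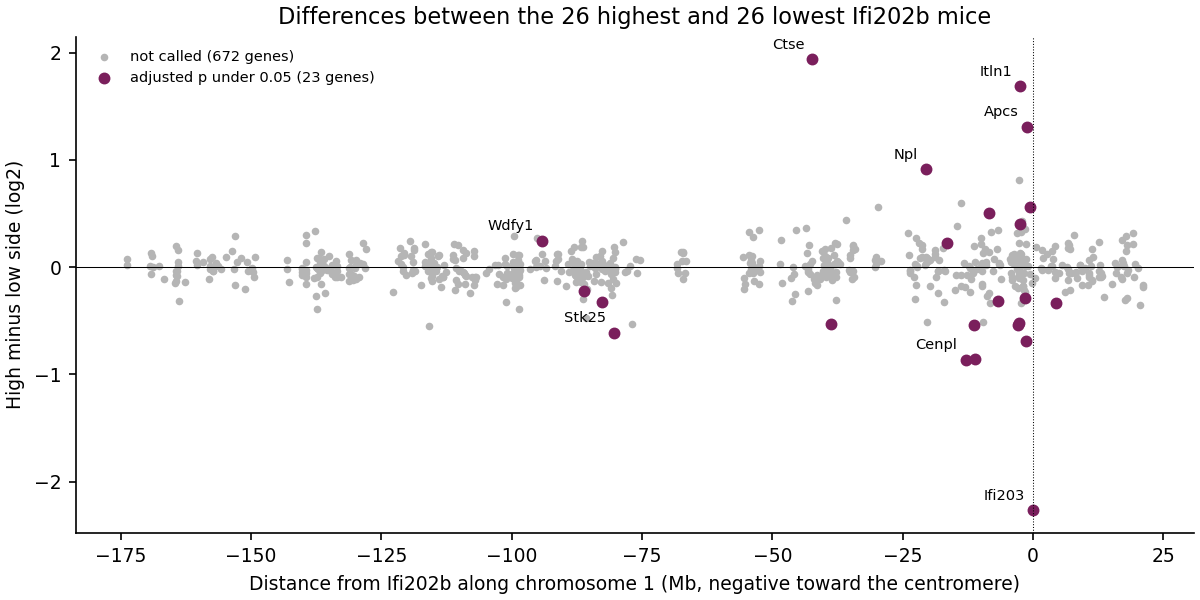
Each point is 1 of 695 chromosome 1 genes, with its distance from Ifi202b in Mb on the x axis and the difference of high minus low mice in log2 on the y axis. The 23 called genes (large points) crowd toward Ifi202b at 0, with Ifi203 at -2.27 and Apcs at 1.31, and 5 lie more than 40 Mb away.

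Ifi203, the nearest measured neighbour and a family member of Ifi202b, was the gene of largest difference and ran opposite to it. It lies 0.0197 Mb from Ifi202b in GRCm38.p6. In the high mice Ifi203 ran from -3.47 through a median of -1.73 to 0.65, and in the low mice from -0.58 through 0.91 to 1.56. The ranges overlapped, yet 20 of 26 low mice lay above every high mouse and 21 of 26 high mice below every low mouse. The difference was -2.27 (SE 0.229), 4.82-fold lower in the high mice, with an adjusted p of 7.70e-10 in limma. Levels below -1, a line drawn after the values were seen, occurred in 19 high, 11 middle and 0 low mice, so some middle mice had levels as low as those of the high mice. The family resembles itself in sequence, probe sequences were not used here, and shared signal between family probes was not tested.

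A few mice departed from this opposition. The 4 high mice with Ifi203 above 0 stood at ranks 2, 18, 19 and 24 for Ifi202b. At Dusp23, a gene that was lower in the high mice, these 4 ran from -0.24 to 0.13, and at Ppox from -0.23 to 0.25. At Apcs 3 of them were at 0.61 to 1.01 and the mouse at rank 24 was at -0.70, the lowest Apcs value of the high side. The 4 low mice with Ifi203 below 0 stood at ranks 79, 80, 82 and 95, which includes the mouse next to the border, and their Apcs ran from -1.31 to -0.53. These mice were picked by their Ifi203 values, so their other levels are given without a test.

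Ifi204, another family member with a pyrin and HIN domain, did not pass the test. Its high mice ran from -0.62 through -0.16 to 0.88 and its low mice from -1.27 through 0.17 to 1.26, so most of both ranges coincided. The difference was -0.15 (SE 0.145, adjusted p 0.779 in limma). These 2 were the only family members besides Ifi202b, of 17 listed, that the kept probes measured under a current symbol.

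Apcs, Itln1, Ackr1 and F11r, neighbours with roles in circulating, immune and adhesion proteins, were higher with Ifi202b. Apcs, which encodes serum amyloid P component, a liver-made pentraxin that binds amyloid and cell debris, ran from -0.70 through 0.17 to 1.28 in the high mice. In the low mice Apcs ran from -2.05 through -1.15 to 0.03, so 16 high mice lay above every low mouse and 18 low mice below every high mouse. The difference was 1.31 (SE 0.151), 2.48-fold higher, with an adjusted p of 3.18e-08, and Apcs was called under all 12 alternatives tried. For every gene the alternative with all signs turned repeats the same fit, so its outcome was fixed in advance. The fellow pentraxin Crp, 1.26 Mb from Ifi202b, differed by 0.22 (SE 0.137, adjusted p 0.643) and was not called.

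Itln1 encodes intelectin, a lectin that binds microbial sugars. It ran from -1.39 through -0.27 to 2.98 in the high mice and from -6.25 through -1.69 to 1.65 in the low mice. The sides overlapped broadly, although 16 low mice lay below every high mouse. The difference was 1.69 (SE 0.313, adjusted p 0.0021), 3.22-fold, and was not called with 17 mice a side (adjusted p 0.0679, the highest over the alternatives). Ackr1, the atypical chemokine receptor at 0.629 Mb, ran from -0.76 through 0.52 to 1.09 against -0.87 through -0.14 to 0.36. It was 1.48-fold higher (0.56, SE 0.117, adjusted p 0.00981), with 16 high mice above every low mouse. F11r, which encodes a tight-junction adhesion molecule, was 1.32-fold higher (0.40, SE 0.08, adjusted p 0.00657). It was not called without the limit-rich arrays, a setting with fewer mice a side. The difference there was 0.396 (adjusted p 0.0684, the highest over the alternatives).

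Dusp23, Ppox, Cfap126 and Pigm, which encode enzymes and a cilium protein, were lower with Ifi202b. Dusp23, which encodes a small dual-specificity phosphatase, had the smallest p of all genes. In the high mice it ran from -0.72 through -0.39 to 0.22 and in the low mice from -0.06 through 0.35 to 0.85. Of the low mice 19 lay above every high mouse, and 21 high mice lay below every low mouse. The difference was -0.69 (SE 0.066, 1.61-fold, adjusted p 3.56e-10).

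Ppox encodes protoporphyrinogen oxidase, a late enzyme of heme synthesis. Its high mice ran from -0.73 through -0.26 to 0.45 and its low mice from 0.03 through 0.27 to 0.66, so that 23 high mice lay below every low mouse. The difference was -0.52 (SE 0.058, 1.43-fold, adjusted p 1.57e-08). Cfap126, a gene of motile cilia, ran from -0.68 through -0.34 to 0.30 against -0.30 through 0.33 to 0.76. It was 1.46-fold lower (-0.54, SE 0.077, adjusted p 7.46e-06), and 15 mice of each side lay beyond the other side's range. Pigm, a mannosyltransferase of the GPI anchor pathway, was 1.22-fold lower (-0.29, SE 0.047, adjusted p 1.51e-04), with 17 high mice below every low mouse. Dusp23, Ppox, Cfap126 and Pigm were called under all 12 alternatives.

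The remaining 3 called genes within 10 Mb kept their calls under fewer alternatives: 9 of 12 for Dcaf6, 8 for Uck2 and 10 for Efcab2. Dcaf6, a substrate receptor of a ubiquitin ligase at 8.5 Mb, was higher by 0.50 (SE 0.11, adjusted p 0.0168). Uck2, the uridine-cytidine kinase at 6.68 Mb, differed by -0.32 (SE 0.074, adjusted p 0.0382). Efcab2, at 4.42 Mb, differed by -0.33 (SE 0.077, adjusted p 0.0358). All 3 fell short without the limit-rich arrays, where the other mice were ranked anew with fewer a side. The differences there were 0.529 for Dcaf6, -0.347 for Uck2 and -0.346 for Efcab2. Calls were also lost in settings of more mice. Dcaf6 had its highest adjusted p, 0.191, with 35 mice a side, where the difference was 0.29, and 0.154 as a slope over all mice. For Uck2 the highest was 0.465, as a slope over all mice. For Efcab2 it was 0.0684, without the limit-rich arrays. Efcab2 was also the only called gene of 38 tested on the telomere side, against 11 of 85 on the centromere side within 10 Mb.

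Many genes among these neighbours did not pass. The lipid genes listed for distal chromosome 1 had 0 of 5 members called by limma and 1 at an unadjusted p under 0.05, which was Usf1, a transcription factor of lipid and glucose genes (-0.08, SE 0.039, adjusted p 0.53). Apoa2, which encodes an apolipoprotein of high density lipoprotein, differed by 0.02 (SE 0.146, adjusted p 0.975). The nuclear receptor gene Nr1i3 differed by -0.03 (SE 0.134, adjusted p 0.959), the protease gene Capn2 by -0.10 (SE 0.058, adjusted p 0.609) and the fumarase gene Fh1 by 0.00 (SE 0.125, adjusted p 0.992). B4galt3, next to Ppox, missed the threshold at 0.23 (SE 0.055, adjusted p 0.0628). That last gene was picked after its value was seen.

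**Figure D3:**
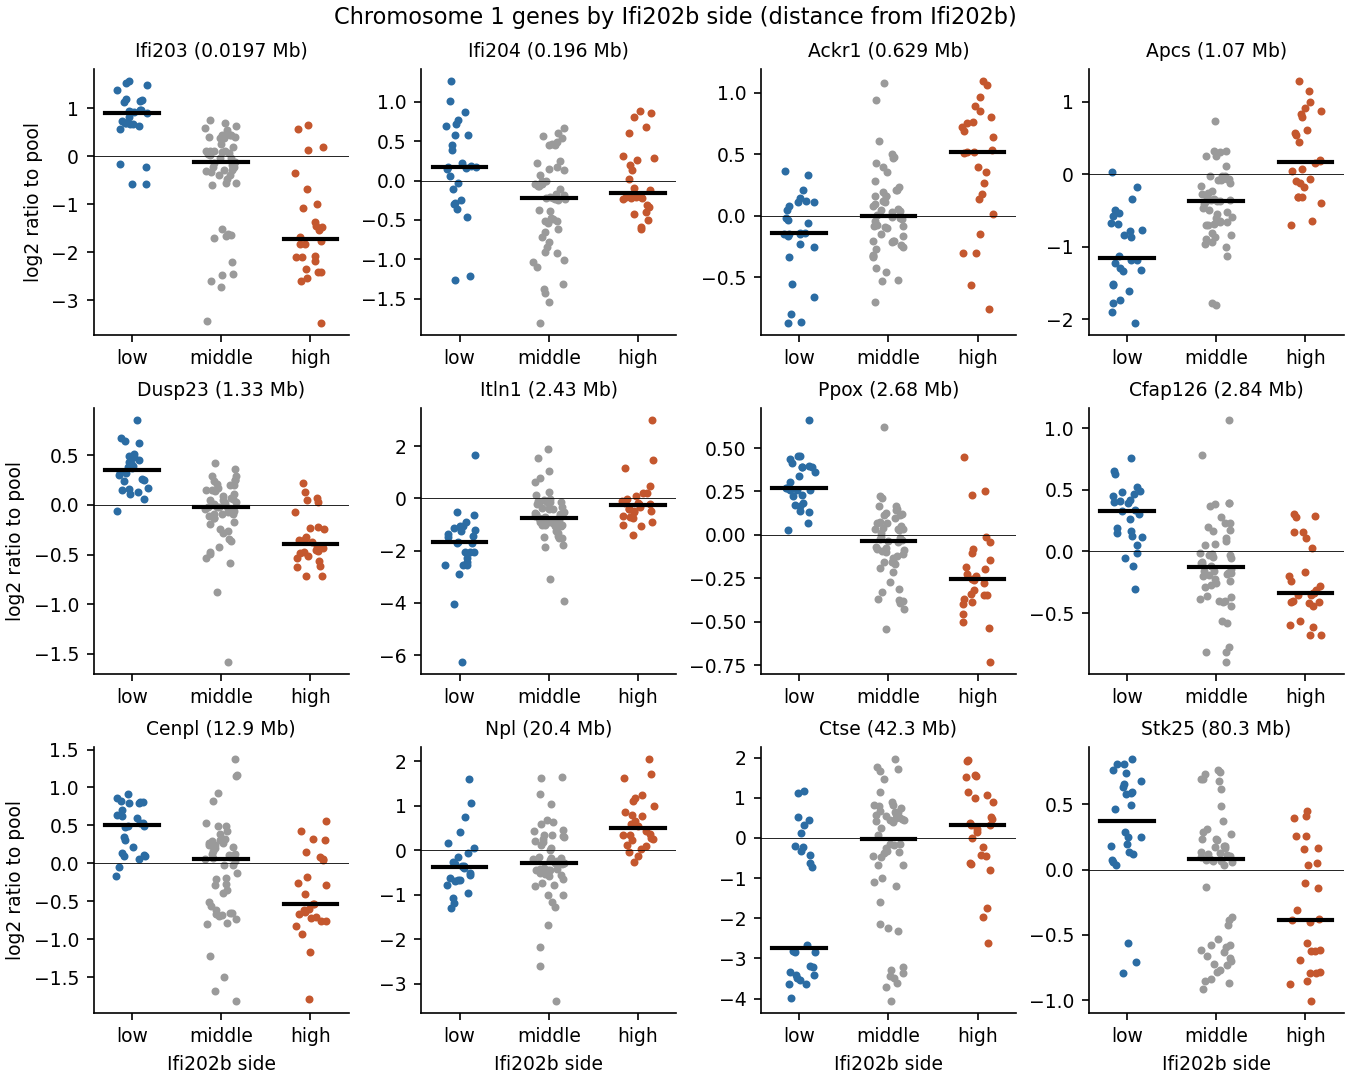
Each panel is 1 chromosome 1 gene with its distance from Ifi202b, points are mice by Ifi202b side, bars are medians and the y axis is the log2 ratio to the pool. Ifi203, Dusp23, Ppox, Cfap126, Cenpl and Stk25 fall from the low to the high mice, Ackr1, Apcs, Itln1, Npl and Ctse rise, and Ifi204 overlaps throughout.

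Another 6 called genes lay between 10 and 40 Mb away, 2 higher and 4 lower in the high mice. Cenpl, which encodes a centromere protein, ran from -1.78 through -0.54 to 0.56 in the high mice and from -0.17 through 0.51 to 0.92 in the low mice. It was 1.82-fold lower (-0.86, SE 0.121, adjusted p 5.73e-06) and was called under all 12 alternatives, as was Prrc2c (-0.54, SE 0.089, adjusted p 1.66e-04). Fmo2, a flavin monooxygenase that oxidises drugs and other small molecules, was 1.81-fold lower (-0.85, SE 0.17, adjusted p 0.00577, up to 0.254 over the alternatives). The 2 probes of Fmo2 gave -0.28 and -1.42. Npl, the sialic acid lyase, measured in 25 low mice, ran from -0.27 through 0.50 to 2.04 against -1.29 through -0.37 to 1.61 and was 1.88-fold higher. Its adjusted p was 0.00316 and reached 0.107 over the alternatives. Timm17a, a subunit of the mitochondrial import channel, was 1.45-fold lower (adjusted p 0.0149, up to 0.327). The RIKEN transcript 2810025M15Rik was 1.17-fold higher (adjusted p 0.0111, up to 0.051).

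Beyond 40 Mb the 5 called genes were Ctse, Stk25, Scly, Atg16l1 and Wdfy1. Ctse, the aspartic protease cathepsin E at 42.3 Mb, ran from -2.61 through 0.32 to 1.94 in the high mice and from -3.98 through -2.75 to 1.17 in the low mice. Its difference of 1.94 (SE 0.409, 3.83-fold, adjusted p 0.0111) was the largest among the genes that were higher with Ifi202b. Below -2, a line drawn after the values were seen, lay 14 low, 11 middle and 1 of the high mice. Ctse was not called with 17 mice a side (adjusted p 0.17) or with 35 (0.0601).

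Stk25, a kinase gene at 80.3 Mb, ran from -1.0 through -0.38 to 0.45 in the high mice against -0.79 through 0.37 to 0.84 in the low mice. It lay below 0 in 17 high, 21 middle and 3 low mice, and its 2 probes gave -0.51 and -0.71. The difference was -0.61 (SE 0.124, 1.53-fold, adjusted p 0.00657) and was not called with 17 mice a side (0.409, the highest over the alternatives). The selenocysteine lyase gene Scly was 1.25-fold lower (adjusted p 0.0149), with -0.52 and -0.13 from its 2 probes, and the autophagy gene Atg16l1 1.17-fold lower (0.0225). Wdfy1 was 1.18-fold higher (0.0358). Each of these 3 lost its call without the limit-rich arrays and with 17 mice a side, both settings of fewer mice. Wdfy1 also lost its call on the same mice, with the limit-rich arrays fitted as a block (adjusted p 0.0503). Over the alternatives the adjusted p rose up to 0.17 for Scly, 0.4 for Atg16l1 and 0.16 for Wdfy1.

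Only 3 called genes had no position on chromosome 1. D1Ertd471e, which the current gene table did not place and whose symbol by mouse nomenclature names a chromosome 1 segment, ran from -2.33 through -0.98 to 0.40 in the high mice. In the low mice it ran from -0.59 through 0.28 to 1.57, and 20 high mice lay below every low mouse. The difference was -1.34 (SE 0.174, 2.53-fold, adjusted p 8.68e-07), and it was called under all 12 alternatives. The splicing helicase gene Dhx38 differed by -0.17 (SE 0.033, adjusted p 0.00316, up to 0.0684). The RIKEN transcript 4930552P12Rik, on chromosome 19 and measured in 25 low mice, differed by -0.65 (SE 0.125, adjusted p 0.00316, up to 0.323).

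No gene of the interferon lists was called between the sides in limma, although 1 interferon response gene was called with 35 mice a side. Of 29 measured genes of the interferon response 0 were called, 3 had an unadjusted p under 0.05 and 23 differences were above 0, with a median of 0.12 beside 0.00 over all 12314 genes. The smallest adjusted p of the list was 0.341, for Ifit2, an interferon-induced RNA-binding protein gene, at 0.40 (SE 0.127). Among the receptors and ligands 0 of 7 were called and 0 had an unadjusted p under 0.05. Ifnar1 and Ifnar2, the receptor chains for type I interferon, differed by -0.02 (SE 0.061, adjusted p 0.957) and 0.04 (SE 0.103, adjusted p 0.932). Ifngr1, a receptor chain for interferon gamma, differed by 0.13 (SE 0.158, adjusted p 0.829). The ligand genes Ifnb1 and Ifng differed by -0.28 (SE 0.236, adjusted p 0.742) and 0.14 (SE 0.12, adjusted p 0.742). The kinase genes Jak2 and Tyk2, which pass on the receptor signal, differed by 0.15 (SE 0.091, adjusted p 0.638) and 0.03 (SE 0.065, adjusted p 0.921).

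The other gene lists gave the same count of calls with few exceptions. DNA sensing and inflammasome genes had 0 of 13 called, with 3 at an unadjusted p under 0.05 and a median difference of 0.12. Fc receptors and SLAM genes, many of them neighbours of Ifi202b, had 0 of 12 called, 4 at an unadjusted p under 0.05 and a median of 0.32. In the acute phase list Apcs was the 1 called gene of 21, 5 had an unadjusted p under 0.05, and the median was 0.22. Targets of p53, E2F and MYC, transcription programmes that Ifi200 proteins have been reported to bind, had 0 of 17 called and 4 at an unadjusted p under 0.05. The glucocorticoid and adipogenic genes had 0 of 13 called and 1 at an unadjusted p under 0.05. With 35 mice a side 210 of all genes were called. Among them were 2 DNA sensing, 4 Fc receptor and SLAM and 3 acute phase genes. Hsd11b1, the cortisone-activating enzyme gene tied to Ifi202b in fat, differed by 0.21 (SE 0.18, adjusted p 0.744), and it was singled out after its value was seen.

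Markers of cell types other than hepatocytes also gave no called gene in this contrast, and bulk liver RNA cannot tell fewer cells of a type from less RNA per cell. Of 12 measured macrophage and Kupffer cell markers 0 were called, 5 had an unadjusted p under 0.05 and 11 differences were above 0, with a median of 0.35. With 35 mice a side 8 of these 12 markers were called. Their mean ratio ran from -0.74 through 0.18 to 1.35 in the high mice and from -1.62 through -0.17 to 0.72 in the low mice, so the sides overlapped over most of their range, and in the middle mice its median was -0.40, below both. Fcer1g, the signalling chain of Fc receptors and itself 2.73 Mb from Ifi202b, had the smallest adjusted p of the list at 0.82 (SE 0.232, adjusted p 0.233). Adgre1, which encodes the macrophage surface protein F4/80, differed by 0.60 (SE 0.205, adjusted p 0.395). Neutrophil (8 measured), stellate (11), T and NK (12), B and plasma (7), endothelial (6), bile duct (6), erythroid (4), pancreatic acinar (6), skeletal muscle (8) and proliferation (6) markers each had 0 called and 0 at an unadjusted p under 0.05. Dendritic (4), adipocyte (5) and hepatocyte (6) markers each had 0 called and 1 at an unadjusted p under 0.05. The hepatocyte median was -0.11. Single livers stood far from their side in markers of other tissues. The mean ratio of the skeletal muscle markers reached 4.83 in a low mouse, against a median of -0.94 on that side. For the pancreatic acinar markers it reached 2.82 in a high mouse, against a median of -0.89 on that side. The part of such livers in the contrast was not tested. The part of macrophage marker levels in the differences of chromosome 1 genes was not tested.

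The 52 middle mice entered neither side. Apcs had a middle median of -0.37 between side medians of -1.15 and 0.17, Dusp23 one of -0.02 between -0.39 and 0.35, and Ifi203 one of -0.12 between -1.73 and 0.91. Because these genes were picked for sides that lie far apart, a middle level between them is close to given and carries no test. The slope of each gene on Ifi202b within the middle mice, in log2 units per log2 unit of Ifi202b, had the sign of the contrast for 20 of the 26 called genes (76.9%), against 52.8% of all genes. Slopes were called for 4 of the 26 (15.4%), near the 16.3% of all genes tested, so the count is no result about the 26 genes.

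The slopes of single neighbours depended on how many mice counted as middle. Over a wider middle of 70 mice, left by taking 17 a side and so sharing 9 mice with each side of the contrast, 4 slopes were called among all genes, with Apcs and Ppox among them. Apcs had a slope of 0.42 (SE 0.159, adjusted p 0.0583) in the 52 mice, short of the threshold, and of 0.54 (SE 0.089, adjusted p 6.21e-04) in the 70. Ppox, of heme synthesis, had -0.02 (SE 0.074, adjusted p 0.909) in the 52 and -0.19 (SE 0.038, adjusted p 0.0292) in the 70. The 4 genes called in the 52 mice lost their calls in the 70. Npl had 1.27 (SE 0.265, adjusted p 5.30e-04) and then 0.52 (adjusted p 0.187), Efcab2 -0.30 (SE 0.078, adjusted p 0.00514) and then -0.14 (adjusted p 0.29). Wdfy1 had 0.28 (SE 0.095, adjusted p 0.0357) and then 0.14 (adjusted p 0.302). Cfap126 had 0.43 (SE 0.118, adjusted p 0.00936), opposite to its contrast, in the 52 mice and -0.02 (SE 0.068, adjusted p 0.984) in the 70.

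Within the middle mice Ifi202b rose together with most macrophage markers. Slopes were called for 1054 genes above 0 (8.56%) and 957 below 0 (7.77%). Of the 12 macrophage markers 11 had a called slope above 0, and the list median was 1.5 beside -0.04 over all genes. The complement genes C1qa, C1qb and C1qc, made by tissue macrophages, had slopes of 1.37 (SE 0.149, adjusted p 2.27e-09), 1.41 (SE 0.152, adjusted p 2.06e-09) and 1.49 (SE 0.153, adjusted p 9.31e-10). The lysosomal genes Cd68 and Ctss had slopes of 1.62 (SE 0.201, adjusted p 3.21e-08) and 2.16 (SE 0.284, adjusted p 1.38e-07). Clec4f, a lectin gene of resident Kupffer cells, had a slope of 0.04 (SE 0.249, adjusted p 0.942) and was the marker without a call.

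**Figure D4:**
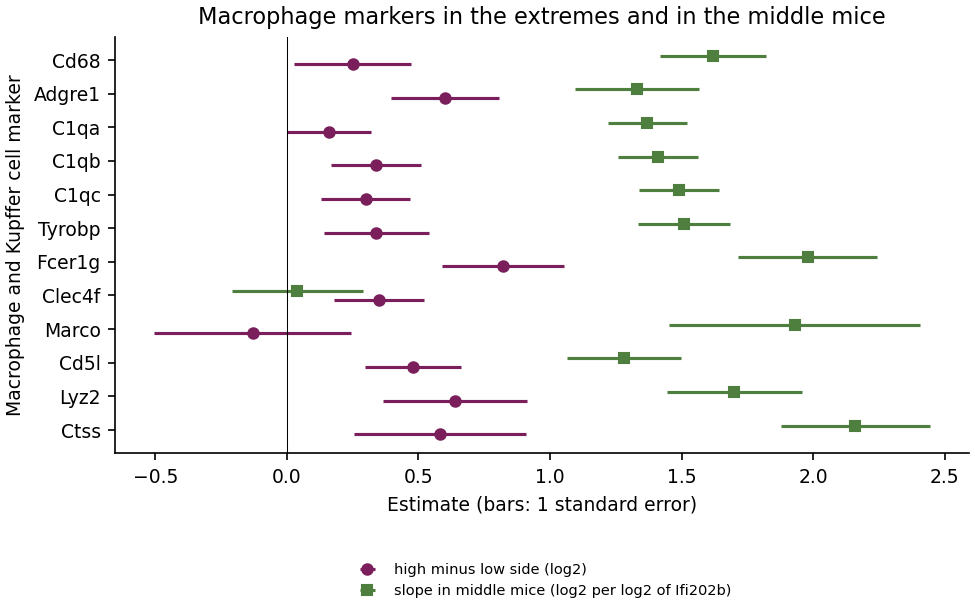
For each of 12 macrophage markers the circle is the difference of high minus low mice in log2 and the square is the slope on Ifi202b in the 52 middle mice in log2 per log2, with bars of 1 standard error. A circle covers side means 2.80 log2 of Ifi202b apart and a square covers 1 log2, so the 2 cannot be compared by position. The median is 1.5 for squares and 0.35 for circles, and Clec4f has the smallest slope at 0.04.

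Members of other inflammatory and scar lists also had called slopes in the middle mice. Called slopes above 0 were found for 8 of 12 Fc receptor and SLAM genes, 7 of 11 stellate markers and 5 of 8 neutrophil markers. The count was 5 of 6 for proliferation markers and 6 of 13 for DNA sensing genes, beside 8.56% of all genes. T and NK markers had 0 of 12, hepatocyte markers 0 of 6 and p53, E2F and MYC targets 0 of 17. Endothelial and bile duct markers each had 2 of 6, and B and plasma markers 2 of 7. Some genes count in more than 1 list, such as Fcer1g (macrophage, Fc receptor) and Lcn2 (neutrophil, acute phase). Fcgr1, a high-affinity antibody receptor, had a slope of 1.30 (SE 0.132, adjusted p 9.31e-10) and Casp1, the inflammasome protease, one of 1.15 (SE 0.136, adjusted p 1.39e-08). Col1a1, the main fibrillar collagen, had a slope of 2.83 (SE 0.476, adjusted p 1.68e-05), and Lcn2, an iron-trapping acute phase protein, one of 2.70 (SE 0.384, adjusted p 8.54e-07). In the acute phase list 7 of 21 slopes were called above 0. The interferon response had 1 called above 0 of 29, Ifit2 at 0.82 (SE 0.141, adjusted p 2.29e-05), and 1 below 0, Ifi27 at -0.59 (SE 0.171, adjusted p 0.0135). Ifi204 followed Ifi202b here at 0.95 (SE 0.164, adjusted p 2.96e-05). The 3 genes of smallest p, picked after the values were seen, were Lair1 with a slope of 1.46 (SE 0.141, adjusted p 3.59e-10), Fcgr1 and C1qc.

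This relation was weaker over the wider middle of 70 mice, which adds 9 mice from each end. There 4 slopes were called in place of 2011, and 894 genes had an unadjusted p under 0.05. Of the 12 macrophage slopes 0 were called in limma, but 12 were above 0, from 0.20 through a median of 0.51 to 0.69, and 11 had an unadjusted p under 0.05. The 9 low mice so added had a macrophage mean from -1.62 through -0.39 to 0.43. The 2 of them nearest the border, at ranks 79 and 80, stood at -1.41 and -1.62, within the range of the middle mice (-1.91 through -0.40 to 1.24). With the first principal component of genes outside chromosome 1 as a covariate, an alternative added after the data were seen, 288 slopes were called, the 11 macrophage slopes among them. Without the limit-rich arrays 1355 were called, again with 11 macrophage slopes. The part of macrophage, neutrophil and collagen marker levels in the other called slopes was not tested.

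**Figure D5:**
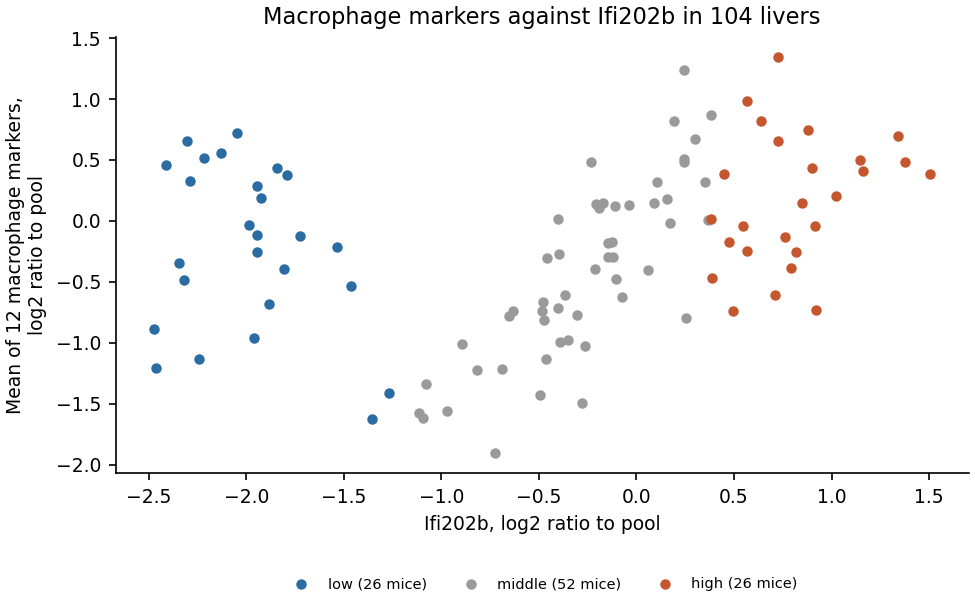
Each point is 1 of 104 mice, with the Ifi202b log2 ratio on the x axis and the mean log2 ratio of 12 macrophage markers on the y axis, coloured by side. The middle mice climb from lower left to upper right between -1.91 and 1.24, while the low mice span -1.62 to 0.72 at low Ifi202b.

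The slopes of the middle mice and of the extremes were compared directly by an interaction in limma over all 104 mice, a test added after the data were seen. The slope was higher in the middle mice for 1042 genes (8.46%) and lower for 894 (7.26%). The 11 macrophage markers with a called slope had a called difference of slopes. They were picked by slopes in the same middle mice that enter the difference, so the second call is no separate support. With the wider middle of 70 mice 0 differences were called in limma, and 530 genes had an unadjusted p under 0.05. Apcs had a difference of slopes of -0.04 (SE 0.182, adjusted p 0.91), and Dusp23 one of 0.12 (SE 0.105, adjusted p 0.47). Ifi203 had one of 1.08 (SE 0.335, adjusted p 0.0185): its level fell with Ifi202b between the extremes and had a slope of 0.28 (SE 0.353) in the middle mice.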

How the data were processed

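Liver RNA of 107 F2 mice, 1 array each, was measured against a pool. The deposited values are log ratios per probe, read here as log10 because they stop at -2 and +2. The labels state neither base nor direction, and for dyes, scanner and array normalization the sources used here give nothing. Values at the limits (1.066% of all) were set missing, beside 1.686% missing. The arrays hold 23536 probes, and a probe was kept if measured on 90% or more of 104 arrays (20633 probes). The 14744 probes with 1 symbol gave, after this filter, 13238 probes and 12315 genes; 18 probes had several symbols and 8774 none. Of the genes 11968 had a current name in the GRCm38.p6 table, which supplied distances. Distances run between the nearer gene ends. Probes of a gene were averaged and the authors' log10 values were multiplied into log2. Array medians ran from -0.091 to 0.072.

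Sides were compared with limma 3.58.1 in R 4.3.3, with Benjamini-Hochberg adjustment over 12314 genes and Ifi202b left out; tables were made in Python 3.11.15. Each mouse is 1 sample and no array was repeated, so p-values measure the spread between mice with array noise in it, and the number of arrays limits precision. The fits were tested on simulated data that drew each gene independently, so that test does not cover variation shared between genes or arrays rich in limit values. The members, lists and markers (120 of 170 and 102 of 129 entries measured) were chosen with earlier results of these data known. Genes were named by this rule: called genes within 10 Mb (up to 15), called genes elsewhere (up to 12 each way), up to 4 called members of each list, all measured Ifi200, interferon receptor and distal chromosome 1 lipid genes, and Apcs. Further genes were named outside the rule, such as Crp, Ifit2, Fcer1g, Adgre1 and some of the macrophage genes in the middle mice. Their choice was not fixed before the values were seen.

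The 12 alternatives changed the arrays, the limit values, the scaling, the number of mice a side, the probe filter, a covariate, array weights, the sign, or used a slope over all mice. Turning all signs gives the same differences and p-values by construction, so a call kept there is no support. For the contrast without the limit-rich arrays, the other 86 mice were ranked anew and fewer were taken a side. A call lost there can therefore come from fewer mice or new sides, which was not tested.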

Additional observations from a re-analysis of the deposited data

Results flagged for a closer look

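Slopes on Ifi202b that differed between the middle mice and the extremes were the results that stood out, by the interaction in limma at an adjusted p under 0.05. In all, 1042 genes had a higher and 894 a lower slope in the middle mice. Among the genes called between the extremes, the difference of slopes was 1.083 for Ifi203, 0.621 for Cfap126, 0.926 for Npl and -0.514 for Dcaf6. It was 1.005 for Ifi204, which did not differ detectably between the sides.

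Among the macrophage markers the difference of slopes was 1.545 for Cd68, 1.135 for Adgre1, 1.31 for C1qa, 1.288 for C1qb and 1.388 for C1qc. It was 1.396 for Tyrobp, 1.702 for Fcer1g, 1.985 for Marco, 1.133 for Cd5l, 1.479 for Lyz2 and 1.955 for Ctss. Among the neutrophil markers it was 2.572 for Lcn2 and 2.126 for S100a8. The collagen genes Col1a1 and Col3a1 had 2.729 and 2.238, and the proliferation genes Ccna2 and Mki67 had 1.282 and 1.319. With the middle widened to 70 mice, 0 of all genes kept a called difference in limma (530 at an unadjusted p under 0.05). The part of macrophage marker levels in the slopes of other genes was not tested.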

How the results depend on the processing

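The 26 called genes kept their direction under every alternative in which they were tested: of 310 gene and setting pairs 278 stayed called and 32 did not. The pairs with all signs turned repeat the same fit, so their calls were fixed in advance. Of the 26, 16 were called without the limit-rich arrays, 14 with 17 mice a side, 24 with 35, and 23 as a slope over all mice. Genes called higher with Ifi202b numbered 9, and 5 without the limit-rich arrays, 5 with 17 and 163 with 35 mice a side, 16 with the first principal component and 28 with array weights. Genes called lower numbered 17, and 10 with 17 mice a side, 47 with 35 and 32 with array weights. Calls within 10 Mb stayed between 8 and 18. Chromosome 1 held 23 of the 26 called genes, 13 of 15 with 17 mice a side, 36 of 210 with 35 and 38 of 60 with array weights. Called slopes in the middle mice numbered 2011, and 3646 with array weights, 288 with the first principal component and 4 with the wider middle. Called differences of slopes numbered 1936, and 1148 without the limit-rich arrays and 0 with the wider middle (530 at an unadjusted p under 0.05). List counts moved in 10 of 276 list settings, and with 35 mice a side 8 of 12 macrophage markers were called. The cause of these changes was not tested.

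No paired analysis was possible because the mice form 1 group and each mouse number names a single animal. Ranking by each Ifi202b probe alone could not be run, since only 1 probe was kept.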
